A study of Mus musculus with 14 samples.

Results

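Atf4 and 9 genes of amino acid uptake and synthesis were followed in a mouse pre-B line, BH1-Bcl2-Ik1ER, that is deficient in Ikaros, the lymphoid zinc finger factor encoded by Ikzf1. The 10 genes are Atf4, the transporter genes Slc7a5, Slc3a2 and Slc7a11, the asparagine synthetase gene Asns, the serine pathway genes Phgdh, Psat1, Psph and Shmt2, and the proline pathway gene Aldh18a1. They were chosen by name with earlier results of these data known, so counts set beside shares of all genes are descriptions and not tests. Each was read by the brightest probe set that the array annotation assigns to that symbol alone, which left 10 of 19938 genes. Every cell carried 2 retroviral genes, Bcl2, which blocks apoptosis, and an Ikaros fused to the estrogen receptor (Ik1ER), and transduced cells had been sorted by flow cytometry. The fusion is switched on with 4-hydroxytamoxifen (4OHT, 100 nM). IL-7, the cytokine that early B cells depend on, was supplied with 8% conditioned medium, which was left out for withdrawal. The 7 groups comprised time 0, 6 h under 4OHT either without or with IL-7, 24 h with 4OHT and either without or with IL-7, and 24 h without 4OHT and either without or with IL-7. Time 0 had the 8% conditioned medium and counts as a group with IL-7, and no 4OHT dose is recorded for it. Each group had 2 arrays, 1 from each of 2 independent experiments. The series asks which genes IL-7 and Ikaros control. All cells come from 1 line, and no cells without the fusion were among the groups, so effects of 4OHT and of Ikaros activity cannot be told apart. At 6 h every array had 4OHT.

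ATF4 is a transcription factor whose protein level is set mainly by translation. Phosphorylation of the initiation factor eIF2 under amino acid shortage or stress in the endoplasmic reticulum lowers general translation and favours that of Atf4 mRNA, so the mRNA level of Atf4 is a poor measure of ATF4 protein. ATF4 binds C/EBP-ATF response elements in genes of amino acid uptake, asparagine and serine synthesis, and many of these genes are also bound by MYC. Slc7a5 (LAT1) and Slc3a2 (4F2hc) form the exchanger that brings leucine and other large neutral amino acids into growing lymphocytes, and Slc7a11 (xCT) pairs with the same Slc3a2 chain to import cystine in exchange for glutamate. Phgdh, Psat1 and Psph make serine from a glycolytic intermediate, and Shmt2 passes its carbon to the mitochondrial folate pool.

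Promoter sequences from RefSeq (GRCm38.p6) were matched by symbol for 9 of the 10 genes. The 250 bases before each annotated start were searched on both strands for the core of the C/EBP-ATF response element, TGATGNAA, and for the E-box that MYC and MAX bind, CACGTG. The response element core was found in 2 of the 9 genes, Slc7a11 and Asns, against 3.9% of all 27025 genes with promoters. The E-box was found in 1 of the 9, Aldh18a1, against 6.9% of all these genes. No match overlapped another. Stretches of 100 bases that end just before the annotated start are shown 5′ to 3′ on the strand of the gene, with matches in capitals. They are the 3 that hold a match and, beside Asns, that of Phgdh, whose levels followed those of Asns most closely among the 10 genes and which holds neither motif in 250 bases.
Slc7a11: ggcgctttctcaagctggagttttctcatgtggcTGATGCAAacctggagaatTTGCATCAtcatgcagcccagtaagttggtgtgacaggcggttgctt
Asns: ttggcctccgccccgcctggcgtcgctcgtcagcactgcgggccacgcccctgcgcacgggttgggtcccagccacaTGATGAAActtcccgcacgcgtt
Phgdh: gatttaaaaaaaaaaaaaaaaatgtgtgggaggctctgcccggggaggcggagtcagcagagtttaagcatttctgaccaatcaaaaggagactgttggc
Aldh18a1: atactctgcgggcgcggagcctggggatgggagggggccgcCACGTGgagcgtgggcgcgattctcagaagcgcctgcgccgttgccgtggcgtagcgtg
These stretches lie at chr3:50443614-50443713 (Slc7a11), chr6:7693210-7693309 (Asns), chr3:98339970-98340069 (Phgdh) and chr19:40588464-40588563 (Aldh18a1), all on the minus strand. In Slc7a11 the core stands at 66 bases before the start and, on the opposite strand, at 47, in Asns at 23, and the E-box of Aldh18a1 at 59. A match describes these letters only, since binding was not measured, and the absence of one in this window says nothing about either factor.

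Values are log2 expression levels as the authors deposited them, so a difference of 1 is a doubling. Array medians lay between 7.23 and 7.43, and by their mean over all arrays all 10 genes lay above the median of all values, 7.33. Differences are given ± standard error (SE) from limma, fitted over all 14 arrays, and a gene passed at an adjusted p under 0.05 over 19938 genes. The p-values measure the spread between arrays of a group, and comparisons that use the same arrays are not independent. With 2 arrays a group, a lack of overlap is described and not tested, and its share over all genes is not given. Shmt2, for example, showed no overlap for 4OHT with IL-7 at a difference of -0.06 that did not pass. Arrays read bulk RNA, so fewer cells with a transcript and less transcript in each cell cannot be told apart. Of 10 B-lineage markers 9 were measured, and all 9 lay above the median in every group (group means of the list 12.1 to 12.4). Single markers of this list rose or fell between groups, as given below. Below the median in every group were 4 of 6 T-cell, 6 of 7 myeloid, 2 of 3 erythroid, 3 of 4 plasma cell and 3 of 4 natural killer (NK) cell markers, the exceptions being Cd3e, Cd5, Itgam, Klf1, Sdc1 and Nkg7.

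**Figure D1:**
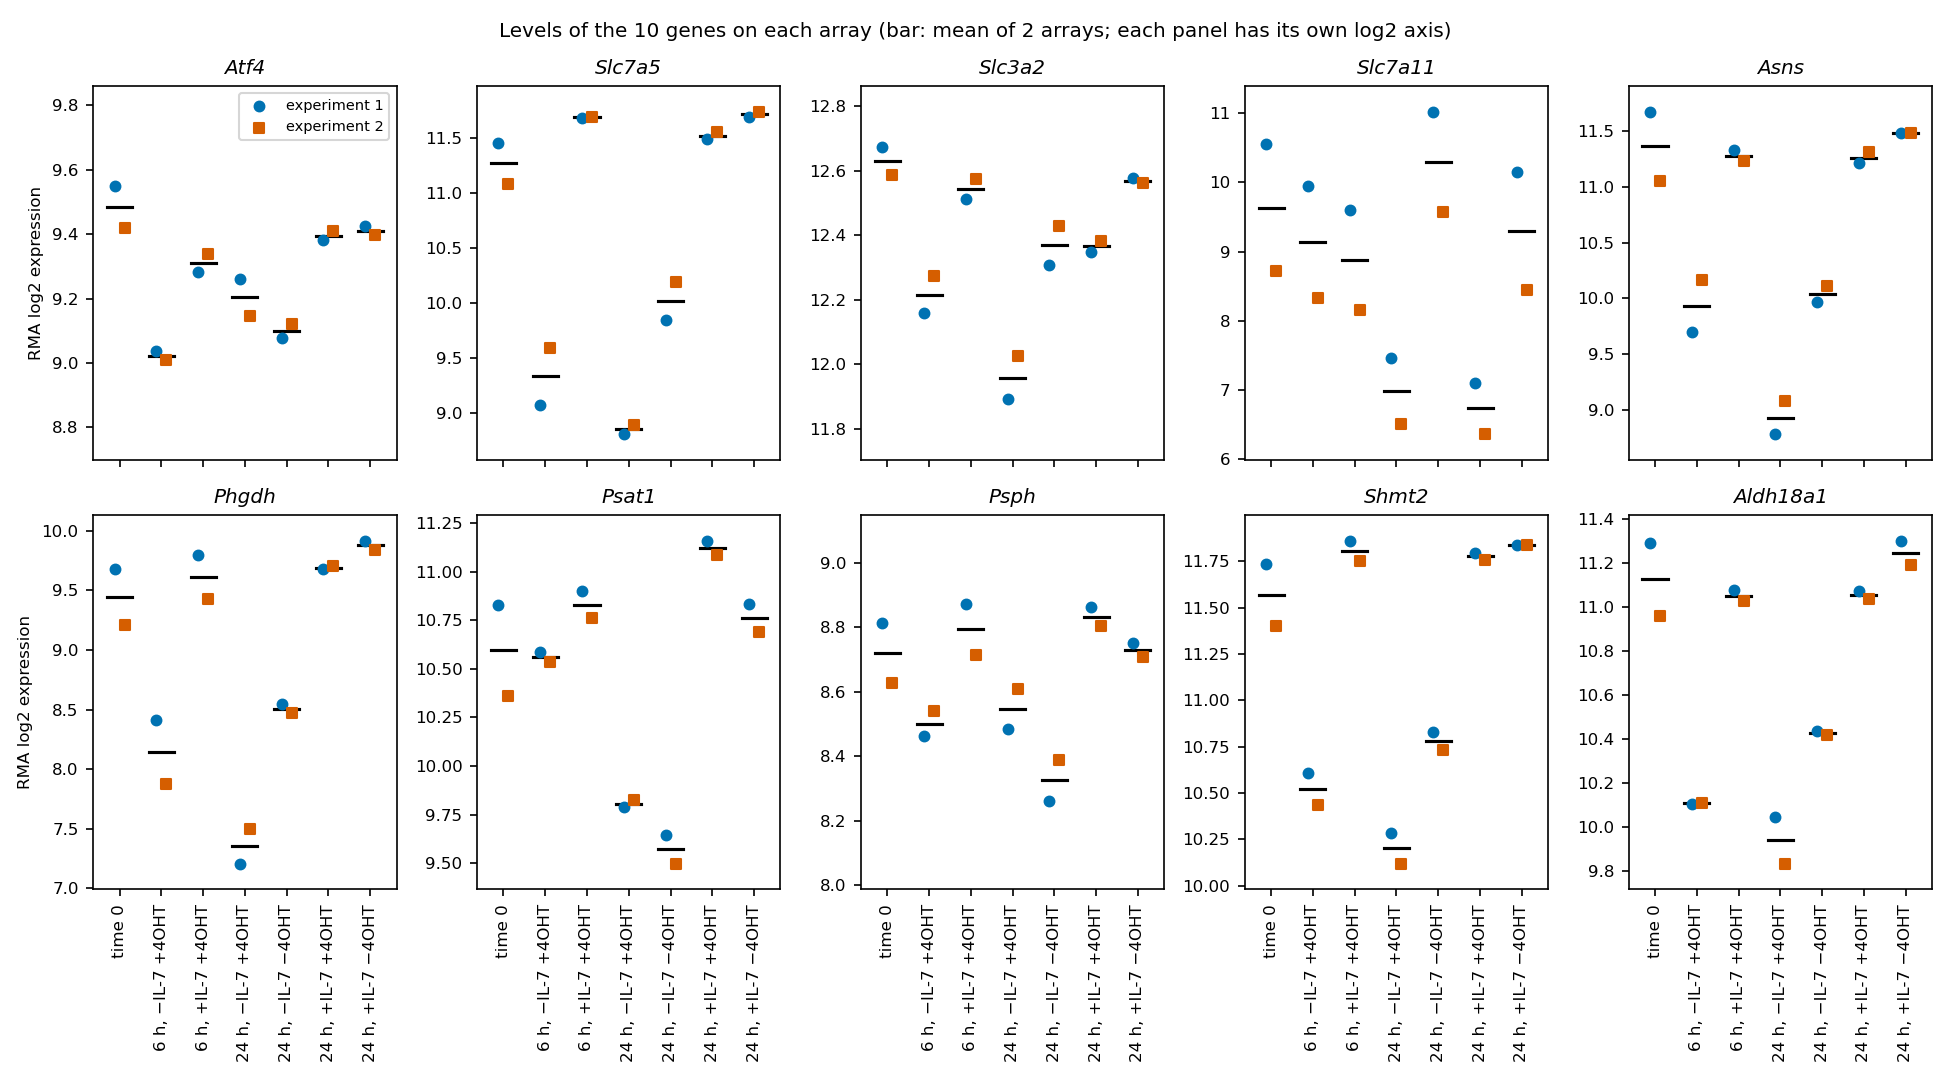
Log2 expression of the 10 genes on each of the 14 arrays, 1 panel per gene with its own axis, circles for experiment 1, squares for experiment 2 and bars for the mean of the 2 arrays. Slc7a5, Asns, Phgdh, Shmt2 and Aldh18a1 are low in the 3 groups without IL-7, Psat1 only in the 2 groups without IL-7 at 24 h, and Slc7a11 in the 2 groups with 4OHT at 24 h, with experiment 2 below experiment 1 in every group.

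Withdrawal of IL-7 lowered 8 of the 10 genes in each of its 3 comparisons and raised none. After 6 h with 4OHT the 8 were all but Slc7a11 and Psat1, where 7.48% of all genes passed as lower. After 24 h without 4OHT they were all but Slc3a2 and Slc7a11 (8.78% of all genes lower), and after 24 h with 4OHT all but Atf4 and Slc7a11 (11.5% of all genes lower). The median difference of the 10 genes was -0.64 at 6 h with 4OHT, against 0.03 for all genes. At 24 h it was -0.94 without 4OHT, against -0.01 for all genes, and -1.22 with 4OHT, against 0.06. With the experiment as a block, all 10 passed at 24 h without 4OHT, 9 lower and Slc7a11 higher, where 27.6% of all genes passed in either direction. At 6 h, leaving out any 1 of the 4 compared arrays left 5 or 6 of the 10 passing, 5 without the experiment 1 array without IL-7. In a fit of those 4 arrays alone 5 passed, without Atf4, Slc3a2 and Psph, where 1898 of all genes passed.

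Treatment with 4OHT for 24 h lowered 7 of the 10 genes in cells without IL-7, all but Atf4, Psat1 and Psph, where 8.17% of all genes passed as lower. The median difference of the 10 was -0.53, against 0.01 for all genes. In cells with IL-7 none of the 10 passed with limma, where 9.16% of all genes passed in either direction. An unadjusted p under 0.05 was seen for 3 of the 10, and the share of all genes at that cut is not given. With the experiment as a block 2 of the 10 passed in cells with IL-7, Slc7a11 lower and Psat1 higher, where 16.7% of all genes passed.

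**Figure D2:**
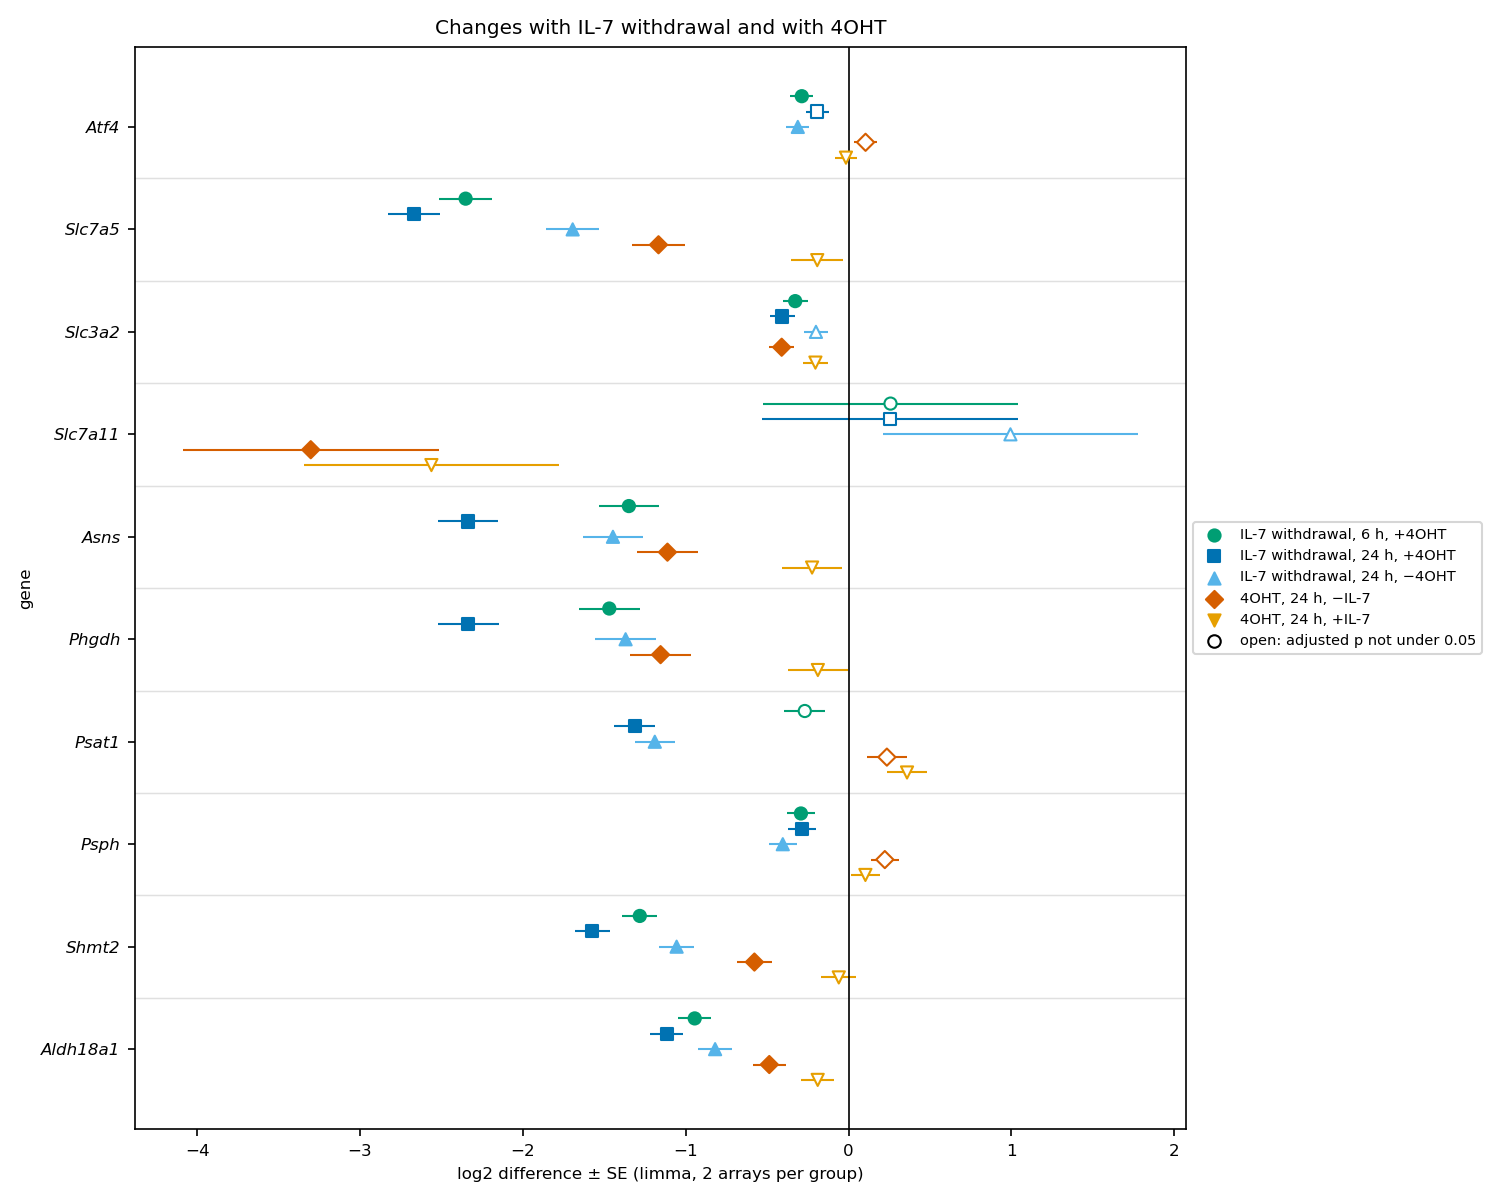
Log2 differences ± SE of the 10 genes for IL-7 withdrawal (circles at 6 h with 4OHT, squares at 24 h with 4OHT, upward triangles at 24 h without 4OHT) and for 4OHT at 24 h (diamonds without IL-7, downward triangles with IL-7). Filled symbols passed at an adjusted p under 0.05, and open ones did not. Slc7a5 lies farthest left under withdrawal, and Slc7a11 is the gene whose 4OHT differences, -3.30 and -2.56, lie far left while its withdrawal differences lie right of 0.

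The Atf4 transcript moved little. It stood at 9.04 and 9.01 on the 2 arrays of 6 h without IL-7, against 9.28 and 9.34 with IL-7, both under 4OHT. After 24 h without 4OHT it stood at 9.08 and 9.12 without IL-7, against 9.42 and 9.40 with IL-7, and after 24 h with 4OHT at 9.26 and 9.15, against 9.38 and 9.41. Arrays without IL-7 lay below those with IL-7 in each pair of groups, with no overlap, which is a description and not a test. The differences were -0.29 ± 0.07 at 6 h (adjusted p = 0.0154), -0.31 ± 0.07 at 24 h without 4OHT (adjusted p = 0.00713) and -0.19 ± 0.07 at 24 h with 4OHT, which did not pass (adjusted p = 0.0675; 0.0416 with the experiment as a block). The 6 h call was lost on leaving out any of the 4 arrays (adjusted p 0.0568 to 0.0929), and that at 24 h without 4OHT on leaving out the experiment 1 array without IL-7 (-0.29, adjusted p = 0.057). For 4OHT Atf4 did not pass, at 0.10 ± 0.07 without IL-7 and -0.02 ± 0.07 with IL-7. Atf4 was highest at time 0, at 9.55 and 9.42, and its 7 group means spanned 0.46, a span larger than that of 70.6% of all genes. No 2 neighbours in the order of its group means differed beyond their spread.

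Slc7a5, the transport chain of the leucine exchanger, showed the largest withdrawal differences of the 10 genes. After 6 h it stood at 9.08 and 9.60 without IL-7, against 11.68 and 11.70 with IL-7. After 24 h with 4OHT it stood at 8.81 and 8.89 without IL-7, against 11.49 and 11.55 with IL-7, and after 24 h without 4OHT at 9.85 and 10.19, against 11.69 and 11.74. The groups were separated by more than 1 log2 unit in each pair. The fall was 5.10-fold at 6 h (-2.35 ± 0.16, adjusted p = 2.02e-06), 6.36-fold at 24 h with 4OHT (-2.67 ± 0.16, adjusted p = 6.9e-07) and 3.24-fold at 24 h without it (-1.69 ± 0.16, adjusted p = 3.07e-05). At 6 h it ranked 12 among 19938 genes by the size of the fall. Without IL-7, 4OHT lowered it 2.25-fold (-1.17 ± 0.16, adjusted p = 0.000295), while with IL-7 the difference was -0.19 ± 0.16 (adjusted p = 0.508). In the order of its 7 group means the 4 groups with IL-7 came first and did not differ from their neighbours. A gap between time 0 and 24 h without both agents passed, as did one between that group and 6 h without IL-7 with 4OHT.

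Slc3a2, the chain that carries both Slc7a5 and Slc7a11 to the cell surface, changed far less than either. It stood at 12.16 and 12.27 after 6 h without IL-7, against 12.51 and 12.57 with IL-7, and at 11.89 and 12.02 after 24 h without IL-7 and with 4OHT, against 12.35 and 12.38 with IL-7 and 4OHT. Without 4OHT the 24 h values were 12.31 and 12.43 without IL-7, against 12.58 and 12.56 with IL-7. The groups did not overlap in any of these pairs, which is a description and not a test. Withdrawal differences were -0.33 ± 0.08 at 6 h (adjusted p = 0.0116), -0.41 ± 0.08 at 24 h with 4OHT (adjusted p = 0.00183) and -0.20 ± 0.08 at 24 h without 4OHT (adjusted p = 0.0897; 0.0434 with the block). The 6 h call was lost without the experiment 1 array without IL-7 (-0.27, adjusted p = 0.105) and without the experiment 2 array with IL-7 (-0.30, adjusted p = 0.0728). Under 4OHT without IL-7 it fell by 0.41 ± 0.08 (adjusted p = 0.00239), and the difference with IL-7 was -0.20 ± 0.08 (adjusted p = 0.128). The lowest group, 24 h without IL-7 and with 4OHT, lay below its neighbour, 6 h without IL-7, beyond the spread.

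Slc7a11, the cystine transporter, was low in cells treated with 4OHT for 24 h, with or without IL-7. After 24 h without IL-7 it stood at 7.46 in experiment 1 and 6.52 in experiment 2 with 4OHT, against 11.02 and 9.57 without 4OHT. With IL-7 it stood at 7.11 and 6.37 with 4OHT, against 10.15 and 8.45 without 4OHT. Both arrays with 4OHT lay below both without it, whether IL-7 was present or not. The fall was 9.86-fold without IL-7 (-3.30 ± 0.78, adjusted p = 0.0124; 1.13e-07 with the block), the largest fall of all 19938 genes in that comparison. With IL-7 it measured 5.90-fold (-2.56 ± 0.78), which did not pass without the block (adjusted p = 0.0654) and passed with it (adjusted p = 2.57e-06).

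The experiment itself moved Slc7a11: over all groups experiment 2 differed from experiment 1 by -1.39 (adjusted p = 3.05e-05). The SE of its differences was 0.78 without the block and 0.20 with it. In 3 of the 4 arrays with 4OHT at 24 h it lay below the median of all values. Within experiments the 4OHT difference was -3.55 and -3.05 without IL-7 and -3.04 and -2.08 with IL-7. The call without IL-7 was lost without the experiment 1 array that had neither agent (-2.58, adjusted p = 0.136) and without the experiment 2 array with 4OHT and no IL-7 (-2.83, adjusted p = 0.0917). Slc7a11 was not among the genes that fell with withdrawal. At 6 h the values were 9.95 and 8.33 without IL-7, against 9.60 and 8.16 with IL-7, and the difference was 0.26 ± 0.78. At 24 h without 4OHT it was 0.99 ± 0.78 (adjusted p = 0.491), with 0.87 and 1.12 in the experiments and an adjusted p of 0.00227 with the block. At 24 h with 4OHT it was 0.25 ± 0.78 (adjusted p = 0.861). After 6 h with 4OHT and IL-7 the difference from time 0, where it stood at 10.55 and 8.72, was -0.75 (adjusted p = 0.762; 0.0239 with the block). Between 24 h and 6 h with 4OHT and IL-7 the difference was -2.15 (adjusted p = 0.201; 4.99e-05 with the block), the largest fall of all 19938 genes in that comparison. Its 7 group means spanned 3.56, the widest of the 10 genes, and no neighbours in their order differed beyond the spread without the block.

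Asns, which makes asparagine from aspartate and glutamine, fell with withdrawal and, without IL-7, with 4OHT. It stood at 9.70 and 10.16 after 6 h without IL-7, against 11.33 and 11.23 with IL-7. At 24 h with 4OHT it stood at 8.78 and 9.07 without IL-7, against 11.21 and 11.31 with IL-7, and at 24 h without 4OHT at 9.96 and 10.11, against 11.48 and 11.49. Arrays with and without IL-7 did not overlap at either time. Withdrawal lowered it 2.55-fold at 6 h (-1.35 ± 0.18, adjusted p = 0.000371), 5.05-fold at 24 h with 4OHT (-2.33 ± 0.18, adjusted p = 3.56e-06) and 2.73-fold at 24 h without 4OHT (-1.45 ± 0.18, adjusted p = 0.0002). Treatment with 4OHT lowered it 2.16-fold without IL-7 (-1.11 ± 0.18, adjusted p = 0.00116), and with IL-7 the difference was -0.22 ± 0.18 (adjusted p = 0.501). The 4 groups with IL-7 did not differ from their neighbours in the order of levels. They lay above the other 3, and 24 h without IL-7 and with 4OHT lay below its neighbour, 6 h without IL-7.

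Phgdh, the dehydrogenase of the first step of serine synthesis, followed Asns closely. It stood at 8.41 and 7.87 after 6 h without IL-7, against 9.80 and 9.43 with IL-7, at 7.21 and 7.50 after 24 h without IL-7 and with 4OHT, against 9.68 and 9.70 with both, and at 8.54 and 8.47 after 24 h with neither, against 9.91 and 9.84 with IL-7 alone. Again no array without IL-7 reached one with IL-7, and the lowest group, 24 h without IL-7 and with 4OHT, lay below its neighbour, 6 h without IL-7, beyond the spread. Withdrawal differences were -1.47 ± 0.19 at 6 h (adjusted p = 0.000205), -2.33 ± 0.19 at 24 h with 4OHT (adjusted p = 3.71e-06) and -1.37 ± 0.19 at 24 h without 4OHT (adjusted p = 0.000308). The 4OHT differences were -1.15 ± 0.19 without IL-7 (adjusted p = 0.000946) and -0.19 ± 0.19 with IL-7 (adjusted p = 0.581). A second probe set, annotated to both Phgdh and the predicted gene Gm6756 and so not used for the counts, gave -1.63, -2.25 and -1.55 for the same 3 withdrawals. In it the change of the 24 h withdrawal effect with 4OHT was -0.70 (limma over all probe sets, adjusted p = 0.345). Its withdrawal effect under 4OHT at 24 h minus that at 6 h was -0.62 (adjusted p = 0.16).

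Psat1, the aminotransferase of the second step, was the serine pathway gene that fell late. After 6 h it stood at 10.59 and 10.54 without IL-7, against 10.90 and 10.76 with IL-7. After 24 h with 4OHT it stood at 9.79 and 9.82 without IL-7, against 11.16 and 11.08 with IL-7, and after 24 h without 4OHT at 9.64 and 9.50, against 10.83 and 10.69. The small gap at 6 h did not pass (-0.27 ± 0.12, adjusted p = 0.214), and the gaps at 24 h did, at -1.31 ± 0.12 with 4OHT (adjusted p = 1.35e-05) and -1.19 ± 0.12 without it (adjusted p = 5.44e-05). Under 4OHT its differences were above 0, with 0.24 ± 0.12 without IL-7 (adjusted p = 0.286) and 0.36 ± 0.12 with IL-7 (adjusted p = 0.105; 0.0215 with the block). In the order of its levels the 2 groups without IL-7 at 24 h stood below the rest beyond the spread, and 6 h without IL-7 did not differ from time 0.

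Psph, the phosphatase of the last step, moved little. Its arrays read 8.46 and 8.54 after 6 h without IL-7, against 8.87 and 8.71 with IL-7, 8.48 and 8.61 after 24 h without IL-7 and with 4OHT, against 8.86 and 8.80 with both, and 8.26 and 8.39 after 24 h with neither, against 8.75 and 8.71 with IL-7 alone. Each pair of groups was separate, and no neighbours in the order of its 7 group means differed beyond their spread. The differences were -0.29 ± 0.09 at 6 h (adjusted p = 0.0434), -0.28 ± 0.09 at 24 h with 4OHT (adjusted p = 0.0325) and -0.40 ± 0.09 at 24 h without 4OHT (adjusted p = 0.00587). Of the 4 arrays compared, leaving out any of 3 ended the call at 6 h (adjusted p 0.0967 to 0.321) and likewise at 24 h with 4OHT (adjusted p 0.0775 to 0.171), all but the experiment 2 array with IL-7 at 6 h and the experiment 2 array without IL-7 at 24 h. Without 4OHT, leaving out the experiment 1 array without IL-7 ended the call (-0.34, adjusted p = 0.0624). The calls at 6 h and at 24 h with 4OHT also ended with a trended and robust variance (adjusted p 0.0671 and 0.0505) and over all probe sets (0.084 and 0.0558). For 4OHT Psph differed by 0.22 ± 0.09 without IL-7 (adjusted p = 0.125) and 0.10 ± 0.09 with IL-7 (adjusted p = 0.514), and neither passed.

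Shmt2, the mitochondrial enzyme that splits serine into glycine and a folate-bound carbon, fell at 6 h (-1.28 ± 0.11, adjusted p = 7.73e-06), at 24 h with 4OHT (-1.57 ± 0.11, adjusted p = 1.31e-06) and at 24 h without 4OHT (-1.06 ± 0.11, adjusted p = 4.2e-05). Its arrays read 10.61 and 10.44 after 6 h without IL-7, against 11.86 and 11.75 with IL-7, and 10.28 and 10.12 after 24 h without IL-7 and with 4OHT, against 11.79 and 11.76 with both. After 24 h with neither agent they read 10.83 and 10.73, against 11.84 and 11.84 with IL-7 alone. No arrays overlapped between these groups, and the 4 groups with IL-7 lay within 0.27 of each other. Without IL-7, 4OHT lowered Shmt2 by 0.58 ± 0.11 (adjusted p = 0.0024), and with IL-7 the difference was -0.06 ± 0.11 (adjusted p = 0.778). Shmt2 and Slc7a11 were the 2 genes of the 10 that differed between the experiments (Shmt2 by -0.13, adjusted p = 0.0429).

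Aldh18a1, which makes the precursor of proline and ornithine from glutamate, fell in all 3 withdrawal comparisons. It read 10.10 and 10.11 after 6 h without IL-7, against 11.08 and 11.03 with IL-7, 10.04 and 9.83 after 24 h without IL-7 and with 4OHT, against 11.07 and 11.04 with both, and 10.43 and 10.42 after 24 h with neither, against 11.30 and 11.19 with IL-7 alone. Withdrawal lowered it 1.92-fold at 6 h (adjusted p = 6.79e-05), 2.17-fold at 24 h with 4OHT (adjusted p = 1.09e-05) and 1.76-fold at 24 h without 4OHT (adjusted p = 0.000178). Without IL-7, 4OHT lowered it by 0.49 ± 0.10 (adjusted p = 0.00604), a call lost without the experiment 2 array with 4OHT (-0.38, adjusted p = 0.0646). With IL-7 the difference was -0.19 ± 0.10 (adjusted p = 0.299). For Shmt2 and Aldh18a1 alike, the 3 groups without IL-7 lay below all groups with IL-7 and did not differ from their neighbours among themselves.

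Whether 4OHT changed the size of the withdrawal effect at 24 h was tested as an interaction. None of the 10 genes passed with limma, where 0.687% of all genes passed. An unadjusted p under 0.05 was seen for 4 of the 10, without a share of all genes at that cut to set beside it. The withdrawal difference with 4OHT minus that without it was -0.97 ± 0.23 for Slc7a5 (adjusted p = 0.0953), -0.97 ± 0.26 for Phgdh (adjusted p = 0.177), -0.89 ± 0.26 for Asns (adjusted p = 0.227) and -0.52 ± 0.15 for Shmt2 (adjusted p = 0.216). With the experiment as a block 3 of the 10 passed, where 2.25% of all genes did, namely Slc7a5 (adjusted p = 0.0295), Phgdh (0.0407) and Shmt2 (0.0266), while Asns did not (0.102). In a fit of the 8 compared arrays alone 3 passed as well, Slc7a5, Asns and Phgdh (adjusted p 0.0221, 0.0302 and 0.016), where 174 of all genes did. So the larger falls of these genes with 4OHT than without it were near the threshold and depended on the fit. For Psat1 (-0.12 ± 0.18), Psph (0.12 ± 0.12) and Slc7a11 (-0.74 ± 1.11) the interaction lay within its SE.

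**Figure D3:**
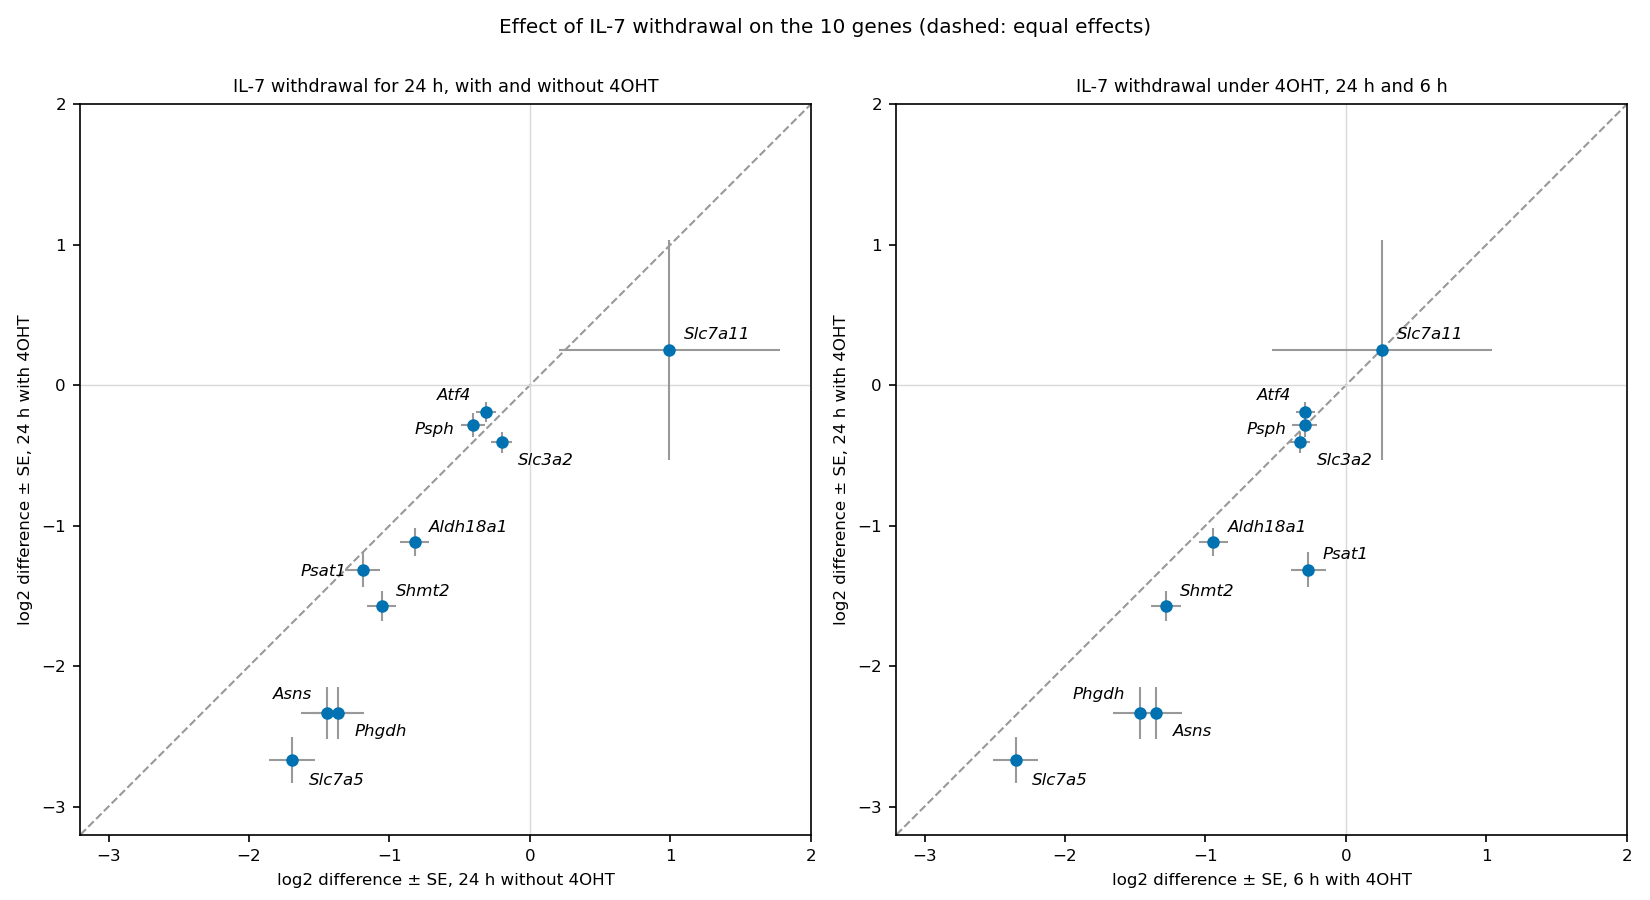
Log2 differences ± SE for IL-7 withdrawal, each point 1 gene, with the dashed line where both effects are equal. The left panel sets 24 h with 4OHT (vertical) against 24 h without 4OHT (horizontal), and Slc7a5, Asns and Phgdh lie below the line by 0.89 to 0.97. The right panel sets 24 h (vertical) against 6 h (horizontal), both with 4OHT, and Psat1 lies farthest below the line, by 1.04.

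The withdrawal effect under 4OHT was then compared between 24 h and 6 h. Psat1 was the 1 gene of the 10 that passed, with a difference of -1.04 ± 0.18 (adjusted p = 0.00352), where 5.01% of all genes passed, and it was -1.06 in experiment 1 and -1.03 in experiment 2. Asns (-0.99 ± 0.26, adjusted p = 0.0524) and Phgdh (-0.87 ± 0.26, adjusted p = 0.096) passed with the block (adjusted p 0.0253 and 0.0252), where 9.89% of all genes did. Asns passed too without the experiment 1 array of 6 h without IL-7 (-1.22, adjusted p = 0.0267), and Phgdh without the experiment 2 array of that group (-1.14, adjusted p = 0.022). For Slc7a5 the withdrawal effects at 24 h and 6 h differed by -0.32 ± 0.23 (adjusted p = 0.597).

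Later and earlier groups with IL-7 were compared as well, and 2 of these 3 comparisons also differ in exposure to 4OHT. None of the 10 genes passed with limma between 6 h with 4OHT and IL-7 and time 0 (8.77% of all genes passed). The same held between 24 h with IL-7 alone and time 0 (3.09%), and between 24 h and 6 h with 4OHT and IL-7 (3.66%). In each, 3 of the 10 had an unadjusted p under 0.05, and the share of all genes at that cut is not given. With the block 1 passed in each, Slc7a11 in the first and last and Shmt2 (0.27, adjusted p = 0.0422) at 24 h, where 15%, 9.12% and 10.3% of all genes did. Without the experiment 1 array of time 0, Psat1 (0.47, adjusted p = 0.017) and Shmt2 (0.40, adjusted p = 0.0405) rose at 6 h, and Shmt2 (0.44, adjusted p = 0.0459) at 24 h.

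Without IL-7, 4 of the 10 were lower at 24 h than at 6 h under 4OHT, where 6.81% of all genes passed as lower. They were Asns (-1.01 ± 0.18, adjusted p = 0.00337), Phgdh (-0.79 ± 0.19, adjusted p = 0.0155), Psat1 (-0.75 ± 0.12, adjusted p = 0.00165) and Slc3a2 (-0.26 ± 0.08, adjusted p = 0.046). With the block 7 passed, where 18.7% of all genes did, with Slc7a5 (-0.49), Slc7a11 (-2.15) and Shmt2 (-0.32) added. Slc3a2 was lost on leaving out any of the 4 arrays (adjusted p 0.0507 to 0.27), Phgdh without either experiment 1 array (-0.52 without that of 6 h and -0.65 without that of 24 h), and Slc7a5 passed without the experiment 1 array of 6 h (-0.74, adjusted p = 0.0134). Over all probe sets Slc3a2 (adjusted p = 0.0806) and Phgdh (0.0504) did not pass.

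Other genes of amino acid metabolism were read from lists chosen by function, also with earlier results of these data known. Where 3 values are given for withdrawal they stand for 6 h, 24 h with 4OHT and 24 h without 4OHT, for which the medians of all genes were 0.03, 0.06 and -0.01. Of all genes, withdrawal raised 6.78%, 12.8% and 11.2% and lowered 7.48%, 11.5% and 8.78%. Without IL-7, 4OHT raised 7.1% and lowered 8.17% of all genes, and with IL-7 it raised 5.22% and lowered 3.94%. Among 18 other amino acid transporters, IL-7 withdrawal at 6 h lowered 10 and raised 2. At 24 h it lowered 8 and raised 4 with 4OHT, and lowered 6 and raised 4 without 4OHT (list medians -0.41, -0.19 and -0.10). The largest falls were those of Slc7a1, the arginine and lysine carrier (-1.83 at 6 h, -1.91 at 24 h with 4OHT and -1.36 without), and Slc1a4, a carrier of alanine, serine and cysteine (-1.13, -1.18 and -1.22). Slc25a22, a mitochondrial glutamate carrier, fell at 6 h (-0.88) and at 24 h with 4OHT (-0.39), and Slc43a1, another carrier of large neutral amino acids, in all 3 (-0.50, -1.04 and -0.86). Slc43a2 (0.66, 0.48 and 0.69) and Slc7a7 (0.74, 0.38 and 0.76) rose in the same order of comparisons. Slc38a9, a lysosomal arginine sensor, rose at 24 h by 0.56 with 4OHT and 0.75 without, and Slc36a1, a lysosomal transporter, rose by 0.63 with 4OHT and 0.50 without.

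Treatment with 4OHT lowered 7 of the 18 transporters and raised 1 without IL-7, led by the glycine carrier Slc6a9 (-0.81), Slc7a1 (-0.77) and Slc7a7 (-0.72), with Slc36a1 the one that rose (0.52). With IL-7 it lowered Slc6a9 (-0.64) and Slc43a1 (-0.46) and raised Slc38a9 (0.52) and Slc43a2 (0.40). Slc43a1 was the transporter of the list whose withdrawal effect with 4OHT was larger at 24 h than at 6 h (-0.54, adjusted p = 0.0345).

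Of 14 measured one-carbon and folate genes, withdrawal lowered 7 and raised none at 6 h. It lowered 9 and raised 1 at 24 h with 4OHT, and lowered 7 and raised 1 without 4OHT (medians -0.38, -0.68 and -0.53). Mthfd1, the cytosolic folate enzyme, fell at 6 h (-2.02) and at 24 h with (-2.73) and without 4OHT (-1.43). Shmt1, the cytosolic partner of Shmt2, fell in the same order (-1.71, -2.04 and -1.73). Gcsh, of the glycine cleavage system, fell at 6 h (-1.22) and at 24 h with 4OHT (-1.44). Mthfd2, a mitochondrial folate enzyme, fell at 24 h with and without 4OHT (-2.39 and -1.90), as did Tyms, which makes thymidylate (-2.56 and -1.78). At 6 h Mthfd2 fell by 0.69 and Tyms measured -0.04, which did not pass. The effect at 24 h minus that at 6 h under 4OHT was -1.70 for Mthfd2 (adjusted p = 0.000364) and -2.52 for Tyms (adjusted p = 0.000116).

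For 4OHT without IL-7, 7 of the 14 fell and 1 rose, led by Mtr, the methionine synthase (-2.50, adjusted p = 4.6e-09), Mthfd1 (-1.44) and Aldh1l1 (-1.08), and Amt rose by 0.41. With IL-7, 2 fell, Mtr (-1.65) and Aldh1l1 (-0.68). The interaction passed for Mthfd1 (-1.30, adjusted p = 0.0326) and Mtr (-0.84, adjusted p = 0.00528). Under withdrawal Mtr rose at 24 h without 4OHT (0.57) and fell with 4OHT (-0.27), and Amt rose by 0.37 at 24 h with 4OHT.

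Of 12 measured genes of proline, glutamate and aspartate metabolism, withdrawal lowered 3 at 6 h, 8 at 24 h with 4OHT and 5 at 24 h without 4OHT, where Glul, the glutamine synthetase, rose by 0.35 (medians -0.11, -0.41 and -0.28). Pycrl, a reductase of proline synthesis (-0.81, -0.76 and -0.53), and Prodh, which degrades proline (-0.77, -0.58 and -0.48), fell in all 3. So did Bcat1, a branched-chain aminotransferase (-0.40, -0.40 and -0.35), which lay below the median of all values in every group. Oat (-0.73 and -0.59) and Gpt2 (-0.60 and -0.56) fell at 24 h with and without 4OHT. At 6 h Oat measured 0.06, and its effects at 24 h and 6 h with 4OHT differed by -0.79 (adjusted p = 0.0198). For 4OHT 6 fell without IL-7 and 3 with IL-7, led by Got1, the cytosolic aspartate aminotransferase (-1.07 without IL-7 and -0.50 with IL-7), Gpt2 (-0.56 and -0.52) and Prodh (-0.49 and -0.39).

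Of 8 measured cysteine and glutathione genes, none passed at 6 h of withdrawal, and 6 fell at 24 h with 4OHT. At 24 h without it 1 fell, Cth (-0.33), which lay below the median of all values in every group. The list medians were -0.10, -0.57 and -0.28. The falls with 4OHT were led by Gsr (-1.29), which reduces glutathione, Txnrd1 (-0.86), which reduces thioredoxin, and Gclm (-0.64), a subunit of the enzyme that starts glutathione synthesis. Gclc, the other subunit, measured -0.45 at 24 h with 4OHT, which passed, and 0.17 at 6 h, which did not, and the difference of the effects passed (-0.62, adjusted p = 0.00137). For 4OHT, Txnrd1 (-0.86) and Gclc (-0.33) fell without IL-7, and none of the 8 passed with IL-7, where Slc7a11 measured -2.56.

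Most stress targets of ATF4 did not pass. Stc2, Vldlr and Fgf21 among them lay below the median of all values in every group, so changes could be missed there. Of 17 measured, withdrawal raised 3 and lowered 1 in each of the 3 comparisons, where 6.78% to 12.8% of all genes rose and 7.48% to 11.5% fell, with list medians of 0.04 at 6 h, 0.12 at 24 h with 4OHT and -0.01 at 24 h without 4OHT, against 0.03, 0.06 and -0.01 for all genes. Ddit3 (CHOP), a stress factor, rose by 0.49 at 6 h and by 0.60 and 0.51 at 24 h with and without 4OHT, and Ddit4 (REDD1), an inhibitor of mTORC1, rose by 0.59, 0.31 and 0.52. Herpud1, of endoplasmic reticulum degradation, rose by 0.58 at 6 h and 0.30 at 24 h with 4OHT, and Ppp1r15a, a regulator of eIF2 dephosphorylation, by 0.28 at 24 h without 4OHT. Eif4ebp1, a translation repressor, was the gene that fell (-0.67, -0.42 and -0.33). With 4OHT, Herpud1 (0.87 without IL-7 and 0.77 with IL-7) and Ddit4 (0.51 and 0.72) rose and Eif4ebp1 (-0.46 and -0.37) fell, and Ppp1r15a fell without IL-7 (-0.35).

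Upstream of ATF4, 14 genes of eIF2 kinases and regulators were measured, of which withdrawal lowered 4 at 6 h, 5 at 24 h with 4OHT and 2 at 24 h without 4OHT, and raised 2 and 1 at 24 h with and without 4OHT (medians -0.21, -0.24 and -0.11). Eif2b3 (-1.41, -1.03 and -0.67) and Eif2b1 (-0.57, -0.49 and -0.48), subunits of the eIF2 exchange factor, fell in all 3. Gcn1, an activator of the amino acid sensing eIF2 kinase, fell at 6 h (-0.44) and at 24 h with 4OHT (-0.24), and that kinase, Eif2ak4 (GCN2), rose by 0.20 and 0.25 at 24 h with and without 4OHT. Eif2s2, an eIF2 subunit, fell by 0.47 at 24 h with 4OHT. Eif2ak3 (PERK), the eIF2 kinase of the endoplasmic reticulum, rose with 4OHT by 1.04 without IL-7 (adjusted p = 0.000385) and 0.69 with IL-7 (adjusted p = 0.0114), and with withdrawal at 24 h with 4OHT by 0.51. Without IL-7, 4OHT lowered Impact (-0.62), Eif2b3 (-0.58) and Gcn1 (-0.28).

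Of 17 mTORC1 and amino acid sensing genes, withdrawal raised 2 and lowered 2 at 6 h, raised 4 and lowered 3 at 24 h with 4OHT, and lowered 1 at 24 h without 4OHT (medians -0.08, 0.01 and 0.03), beside 6.78%, 12.8% and 11.2% of all genes raised and 7.48%, 11.5% and 8.78% lowered. Deptor, an inhibitor of mTOR, fell in all 3 (-0.72, -0.90 and -0.53) and with 4OHT without IL-7 (-1.28) and with IL-7 (-0.91). Tsc1 rose by 0.35 at 6 h and Depdc5 by 0.23, and Rragb fell by 0.50. At 24 h with 4OHT, Rragd (0.38), Rragc (0.34) and Tsc1 (0.31) rose, and Rragb (-0.49) and Rheb (-0.38) fell. For 4OHT without IL-7, Tsc1 rose (0.33) and Mtor fell (-0.41).

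**Figure D4:**
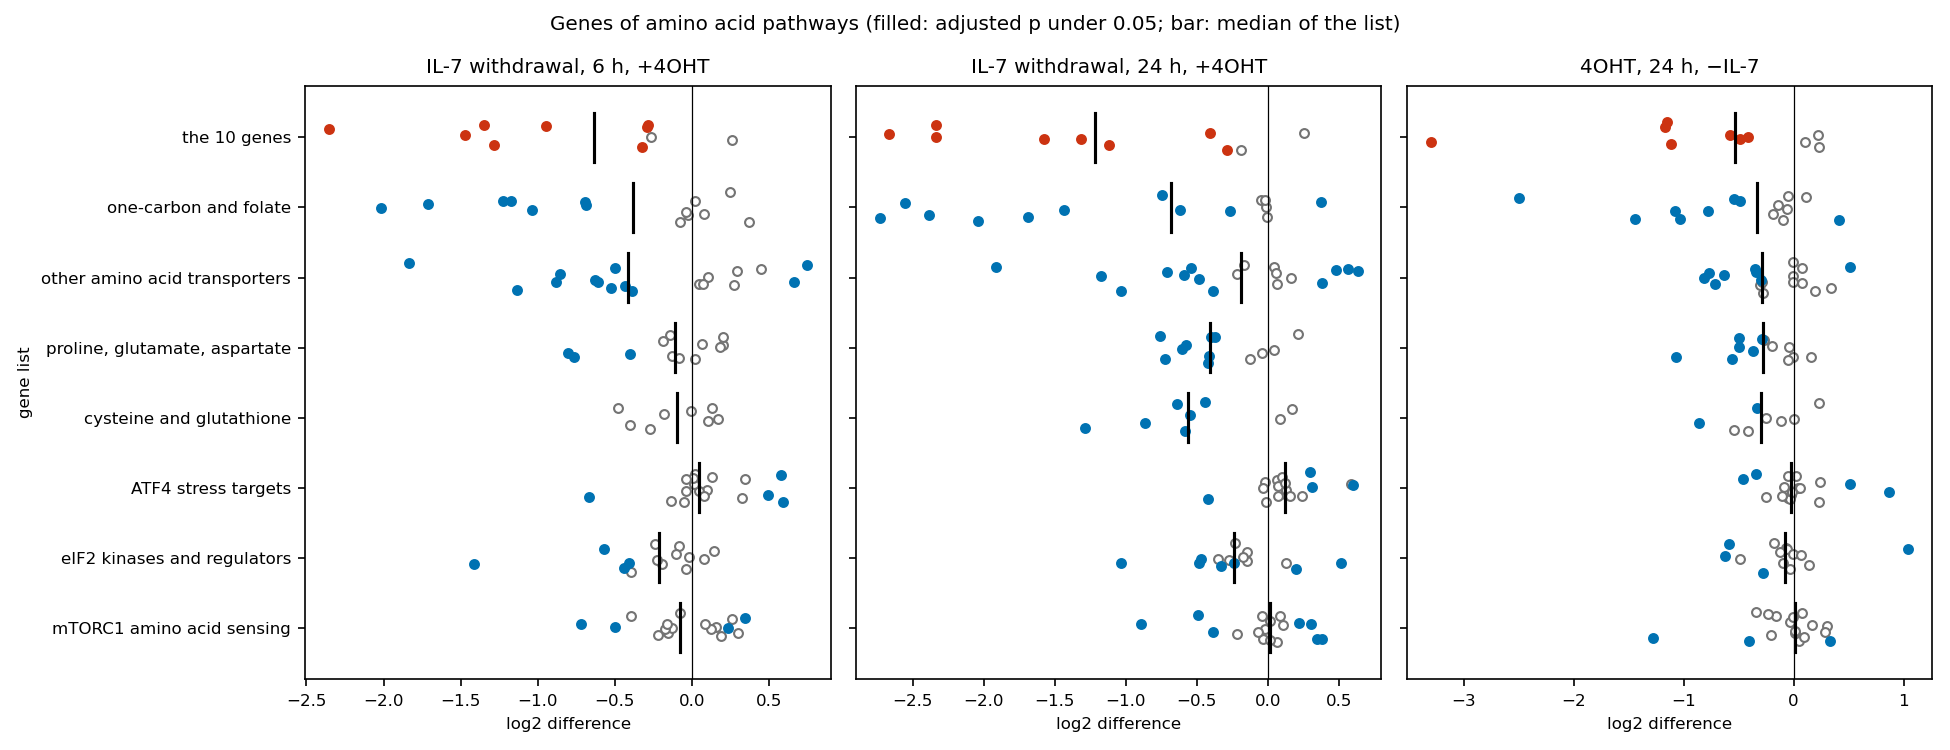
Log2 differences of the genes of each list for IL-7 withdrawal at 6 h with 4OHT, withdrawal at 24 h with 4OHT and 4OHT at 24 h without IL-7. Each point is 1 gene, filled where it passed, bars mark list medians, and the panels have their own axes. By their lowest genes, the 10 genes and the one-carbon list extend farthest left. Withdrawal medians at 6 h are -0.64 for the 10 genes, -0.41 for the other transporters and -0.38 for the one-carbon list. At 24 h they are -1.22, -0.19 and -0.68, and the stress targets lie around 0.

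Regulators of the IL-7 and Ikaros pathways were read beside the 10 genes. Myc, which drives growth, averaged 11.11 after 6 h without IL-7, against 13.24 with IL-7, 9.37 after 24 h without IL-7 and with 4OHT, against 12.64 with both, and 12.07 after 24 h with neither, against 12.87 with IL-7 alone. The differences were -2.13 ± 0.11 (adjusted p = 2.66e-07), -3.27 ± 0.11 (adjusted p = 2.18e-08) and -0.80 ± 0.11 (adjusted p = 0.000258). Without IL-7, 4OHT lowered Myc by 2.70 ± 0.11 (adjusted p = 1.7e-08), with IL-7 the difference was -0.23 ± 0.11 (adjusted p = 0.221), and the interaction passed (-2.47 ± 0.15, adjusted p = 3.05e-05). The withdrawal effects at 24 h and 6 h under 4OHT differed for Myc (-1.14, adjusted p = 0.000571), Mycn (0.76), Cish (1.85), Bcl6 (-1.27) and Max (0.49), the partner of MYC. Mycn fell with withdrawal at 6 h (-1.23) and at 24 h with 4OHT (-0.47). Cish, a STAT5 target that reads IL-7 signalling, fell with withdrawal at 6 h (-2.99) and at 24 h with (-1.15) and without 4OHT (-1.36), and also with 4OHT (-0.67 without IL-7 and -0.88 with IL-7). Bcl6, a repressor that IL-7 signalling holds down, rose by 2.48, 1.20 and 1.65 with withdrawal, and Il7r, the receptor chain, by 0.36, 0.42 and 0.44. At time 0, with 8% conditioned medium, Cish averaged 8.27 and Bcl6 10.10. After 6 h under 4OHT, Cish averaged 10.71 with IL-7 and 7.72 without it, and Bcl6 7.73 and 10.20. Time 0 thus lay nearer to 6 h without IL-7 for both genes, and also for Mycn, Socs2 and Max. Mycn averaged 7.15 at time 0, against 7.16 at 6 h without IL-7 and 8.40 with it, and Socs2 11.64, against 11.68 and 13.17. Myc at time 0 (12.52) lay nearer to 6 h with IL-7, as did Foxo1, Ikzf1 and Il7r. The reason was not tested. With 4OHT, Bcl6 fell without IL-7 (-0.43) and measured 0.02 with IL-7. Ikzf1 did not pass at 6 h of withdrawal (0.14, adjusted p = 0.259), rose by 0.25 and 0.23 at 24 h with and without 4OHT, and did not pass for 4OHT (0.07 without IL-7 and 0.06 with IL-7). Whether its probe set reads the fusion transcript was not tested.

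B-lineage markers moved in both directions. Of the 9 measured, 4OHT without IL-7 raised 5 and lowered 3, where 7.1% of all genes rose and 8.17% fell. Cd79a (0.77) and Pax5 (0.66) rose most, and Vpreb1 (-1.34) and Vpreb2 (-0.99) fell most. Withdrawal at 24 h with 4OHT raised 5 and lowered 2 (12.8% and 11.5% of all genes). The interaction passed for Vpreb1 (-0.75, limma adjusted p = 0.00756). Some markers of other cell types moved in the same comparisons too. Sdc1, a plasma cell marker above the median, fell with withdrawal at 6 h (-0.64) and at 24 h with and without 4OHT (-0.79 and -0.78), and the plasma cell list ranged from 6.28 to 6.30 over the arrays of 6 h without IL-7, against 6.43 to 6.53 with IL-7. Nkg7 fell with withdrawal without 4OHT (-1.24) and with 4OHT in the presence of IL-7 (-1.12), and Klrb1c, below the median, rose by 1.82 with 4OHT without IL-7 and by 1.23 with withdrawal under 4OHT. The NK list ranged from 5.95 to 6.23 over the arrays of 24 h with 4OHT and without IL-7, against 5.57 to 5.68 with neither agent. Itgam rose at 24 h of withdrawal by 0.84 with 4OHT and 0.60 without. Prdm1, below the median, rose with withdrawal without 4OHT (0.31) and fell with 4OHT without IL-7 (-0.46), and Cd3e (-0.29) and Cd5 (-0.35) fell with 4OHT and IL-7. Their part in the differences of the 10 genes was not tested, and of the T-cell, myeloid and erythroid lists no gene passed at 6 h of withdrawal.

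The genes most like each member in profile were found among 9617 genes above the median without predicted genes, by the root mean square (RMS) difference between 7 group means after each profile was centred. The measure is a description over groups that share arrays. Asns was the gene second nearest to Phgdh (RMS 0.13 log2 units) and Phgdh the nearest to Asns, with Nme1, a nucleoside diphosphate kinase, nearest to Phgdh (0.10). Slc7a5 was nearest to Mthfd1 (0.14), Ctps (0.17), the CTP synthase, and Mettl1 (0.18), a tRNA methyltransferase. Shmt2 was nearest to Ranbp1 (0.08), Aimp2 (0.09) and Fbl (0.10), and Aldh18a1 to Mrpl12 (0.06), Mrpl42 (0.07) and Tbl3 (0.09). Psat1 lay elsewhere, nearest to Ddias (0.10), Net1 (0.12) and Ube2c (0.13), the last a ubiquitin-conjugating enzyme of mitosis. Slc7a11 had no gene as near, the closest being Dock9 (0.24), Myom1 (0.32) and Lncenc1 (0.36). Tmem97 and Nme1 completed the list of Asns (0.17 and 0.19), and AI506816 that of Phgdh (0.13). Atf4, Slc3a2 and Psph spanned less than 1 log2 unit over the groups and were not searched.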

How the data were processed

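The deposited values cover 14 microarrays of the BH1-Bcl2-Ik1ER line, grouped by their titles. Per the labels' protocols, targets were made from 150 ng of total RNA with whole-transcript kits. The deposited table holds log2 values of 35556 probe sets, made by the authors with RMA in Affymetrix Expression Console 1.1, per the submitters' processing notes. Other settings, the genome build and the annotation version are not stated there. Since RMA equalizes the arrays, differences are relative to the bulk of genes. Detection limits and saturation were not read.

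The probe annotation gave 21789 probe sets 1 symbol and 1621 several, and left the rest unnamed. The brightest probe set per symbol was kept (19938 genes). The 10 genes had 1 such probe set each. Tests used lmFit and eBayes of limma 3.58.1 under R 4.3.3, two-sided with Benjamini-Hochberg adjustment, in 1 fit of all 14 arrays with a mean per group, with 7 residual and 4.83 prior degrees of freedom, over 11 comparisons. The script was tested on simulated data. The number of arrays, 2 per group, limits the precision, with a median SE of 0.09. The labels give the experiment numbers as independent experiments, and do not state whether same-numbered arrays share a starting culture. The main fit does not use the experiment. With the experiment as a block, 3731 of the 19938 genes differed between the experiments. Deviations of same-numbered arrays from group means correlated at 0.124 to 0.631 in the 21 pairs of groups. The fit with the experiment as a block is an alternative, given where it changed a call.

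The 10 genes and the gene lists were chosen with earlier results of these data known. Named genes are the 10, up to 3 passing rises and falls per list and comparison, list genes that passed a difference of effects, 6 regulators, and the 3 genes nearest in profile to each member with a span of at least 1 log2 unit. Some markers and the stress targets below the median in every group are named as well. List genes that lack an own probe set were not analysed here.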

Additional observations from a re-analysis of the deposited data

Results flagged for a closer look

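The withdrawal effect on Psat1 under 4OHT differed between the 2 times. The effect at 24 h minus that at 6 h was -1.04 (SE 0.18, limma adjusted p = 0.00352), with -1.06 in experiment 1 and -1.03 in experiment 2. No other gene of the 10 passed this test of the difference without the experiment as a block, and without it none passed the test of whether 4OHT changed the withdrawal effect at 24 h.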

How the results depend on the processing

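Each comparison was repeated with the experiment as a block, with quantile normalization repeated, without genes below the median of all values, with a trended and robust variance, with the compared arrays alone, over all probe sets, and without each compared array in turn. No difference of the 10 genes changed sign past the threshold under any of these. With the replicate block, which pairs the arrays of an experiment, 16 single-gene results gained a call and none lost one. The count passing became 10 for withdrawal at 24 h without 4OHT (27.6% of all genes passed) and 9 for that with 4OHT (33%). It became 2 for 4OHT with IL-7 (16.7%), 3 for the interaction (2.25%) and 3 for 24 h against 6 h of withdrawal (9.89%). For 24 h against 6 h without IL-7 it became 7 (18.7%). For time with IL-7 it became 1 in each of 3 comparisons, 6 h and 24 h against time 0 (15% and 10.3%) and 24 h against 6 h (9.12%). With the compared arrays alone 5 passed at 6 h of withdrawal (1898 of all genes), 1 for 4OHT with IL-7 (1322) and 3 for the interaction (174). There were 2 for 24 h against 6 h of withdrawal (771), 1 for 24 h against 6 h with IL-7 (555) and 2 without IL-7 (1494). For 24 h against 6 h of withdrawal 2 passed without dim genes (1175 in all) and 2 with the other variance model (976 in all). Over all probe sets 2 passed for 24 h against 6 h without IL-7 (2236 in all). For withdrawal at 24 h with 4OHT, Psph lost its call with the compared arrays alone, over all probe sets and with the other variance model. The last 2 settings also ended its call at 6 h. Without dim genes Atf4 gained a call at 24 h with 4OHT. Repeated normalization ended the call of Slc3a2 for 24 h against 6 h without IL-7 and gave one to Shmt2. The cause was not tested. The number of all genes passing also changed when 1 array was left out, and it is not set beside the counts below. Leaving out 1 array gave 5 to 6 passing at 6 h of withdrawal, 6 to 8 at 24 h without 4OHT, 7 to 8 at 24 h with 4OHT, 0 in each case for 4OHT with IL-7, 5 to 7 for 4OHT without IL-7, 0 in each case for the interaction, 1 to 2 for 24 h against 6 h of withdrawal, 0 to 2 for 6 h and 0 to 1 for 24 h against time 0, 0 in each case for 24 h against 6 h with IL-7 and 2 to 3 without IL-7. Without 1 array, 491 single-gene results stayed on their side of the threshold, 23 lost it and 6 gained one. The calls lost under other settings were those of Atf4, Slc3a2, Psph and Phgdh, such as Psph at 24 h with 4OHT over all probe sets (adjusted p = 0.0558). No member had another probe set of its own symbol, so the choice of probe set could not be varied.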
